A study of Mus musculus with 20 samples.

Results

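Carbonic anhydrases and aquaporins were examined in the cecum of mice fed raw potato starch. The genes are 6 carbonic anhydrases, Car1, Car2, Car4, Car8, Car12, and Car13, and 4 aquaporins, Aqp1, Aqp4, Aqp8, and Aqp11, taken by name. All 10 were found among the 19887 genes counted, and all 10 were among the 15348 genes with enough counts to be tested.

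C57BL/6 mice were weaned onto the Total Western Diet (TWD), a rodent diet modelled on American nutrient intakes, and ate it for 6 weeks. For the next 3 weeks they ate the TWD alone (0% RPS) or the TWD with 2, 5, or 10% of its weight as raw potato starch (RPS), a starch that largely escapes digestion in the small intestine. RNA from whole cecum tissue of 5 mice per diet, 20 in all, was measured by RNASeq. All groups had eaten the same Western-type diet beforehand, no group was fed standard chow, and cage, litter, and sequencing batch are not in the sample labels.

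Carbonic anhydrases interconvert carbon dioxide and bicarbonate, and so provide the acid and base that the surface cells of the large intestine exchange for sodium and chloride. Aquaporins are membrane channels through which water, and in some members other small molecules, crosses cells. Both families are abundant in the absorptive epithelium of the cecum and colon, which takes up salt, water, and the short-chain fatty acids made by bacteria that ferment starch.

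Total counts per mouse were between 14967798 and 42687283, and the TMM factors that adjust these totals were between 0.916 and 1.07. Values below are CPM (counts scaled to library size) scaled in this way, and mice are numbered from 1 to 5 within each diet. Epithelial markers (8 of 8 tested) summed to between 8971 and 13488 CPM over the 20 mice. The gastric parietal cell marker Atp4a had between 0 and 5 counts per mouse. A gene was called when its Benjamini-Hochberg adjusted p was at most 0.05 and its fold change at least 1.5.

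Promoter sequences are shown for Aqp8 and Car4, the aquaporin and the carbonic anhydrase with the largest estimated differences at 10% RPS, which pointed in opposite directions. RefSeq gave promoters, from 250 bases before to 50 bases after the start of the gene, for 5 of the 10 genes (Aqp1, Aqp8, Aqp11, Car4, and Car12) on GRCm38.p6. Both sequences below are on the plus strand, at chr7:123462044-123462343 for Aqp8 and chr11:84957504-84957803 for Car4, and each matched GRCm39 exactly at 1 place. The RefSeq start of Aqp8 lay 3 bases downstream of the start of the canonical GENCODE transcript and that of Car4 lay 214 bases downstream of its own. Capitals mark matches to 6 short motifs.
Aqp8: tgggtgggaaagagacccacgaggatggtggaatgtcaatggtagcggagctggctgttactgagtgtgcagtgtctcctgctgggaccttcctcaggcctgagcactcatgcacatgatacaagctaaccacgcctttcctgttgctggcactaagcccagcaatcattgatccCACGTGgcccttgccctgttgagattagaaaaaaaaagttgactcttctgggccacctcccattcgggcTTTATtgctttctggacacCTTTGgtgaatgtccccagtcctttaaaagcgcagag
Car4: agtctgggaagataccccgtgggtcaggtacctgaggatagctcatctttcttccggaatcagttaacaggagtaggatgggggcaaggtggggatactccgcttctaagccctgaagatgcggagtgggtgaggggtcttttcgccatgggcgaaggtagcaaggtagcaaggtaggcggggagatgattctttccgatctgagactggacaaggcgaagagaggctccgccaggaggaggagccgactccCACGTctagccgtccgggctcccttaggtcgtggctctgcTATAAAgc
The 6 motifs were chosen after expression values had been seen, and both strands were searched. The TATA box, TATAAA, was found in 13.6% of the 32851 promoters of the table. The CDX2 core, spelled TTTAT, was found in 40% of them and the GC box, spelled GGGCGG, in 35.7%. The hypoxia response core, spelled ACGTG, was in 19.6%, the HNF4 core, spelled CAAAG, in 53.9%, and an E-box, spelled CAGCTG, in 16.3%. Other spellings of the E-box, among them CACGTG, were not searched for as such. The Aqp8 promoter held the CDX2 core at position -6, the hypoxia response core on both strands of 1 palindrome at positions -75 and -74, and the HNF4 core on the minus strand at position 14, counted from the RefSeq start. The Car4 promoter held the TATA box at position 43, the hypoxia response core on the minus strand at position 3, and the CDX2 core on the minus strand at position 44, inside the TATA box. Of the other 3 promoters, that of Aqp1 held the GC box and the HNF4 core, that of Car12 the GC box, and that of Aqp11 the HNF4 core. A match describes letters only, and binding was not measured.

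Car1 dominated both families. Its level averaged 17800 CPM per kb of its canonical transcript over the 20 mice (SD 3157), which ranked 3 among 15336 genes with a known transcript length. It held between 1.48 and 2.67% of all counts of a mouse and between 92.5 and 95.9% of the summed CPM per kb of the 6 carbonic anhydrases. Aqp8 came next with 1052 CPM per kb (SD 288), rank 37, and made up between 96 and 98.3% of the summed CPM per kb of the 4 aquaporins. Car2 followed with 648 CPM per kb (SD 54.6), Car4 with 226 (SD 50.3), and Car12 with 80.6 (SD 9.93). The remaining members were far lower, with 18.5 CPM per kb for Car13, 15.8 for Aqp1, 9.39 for Aqp11, 4.70 for Car8, and 2.46 for Aqp4.

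**Figure D1:**
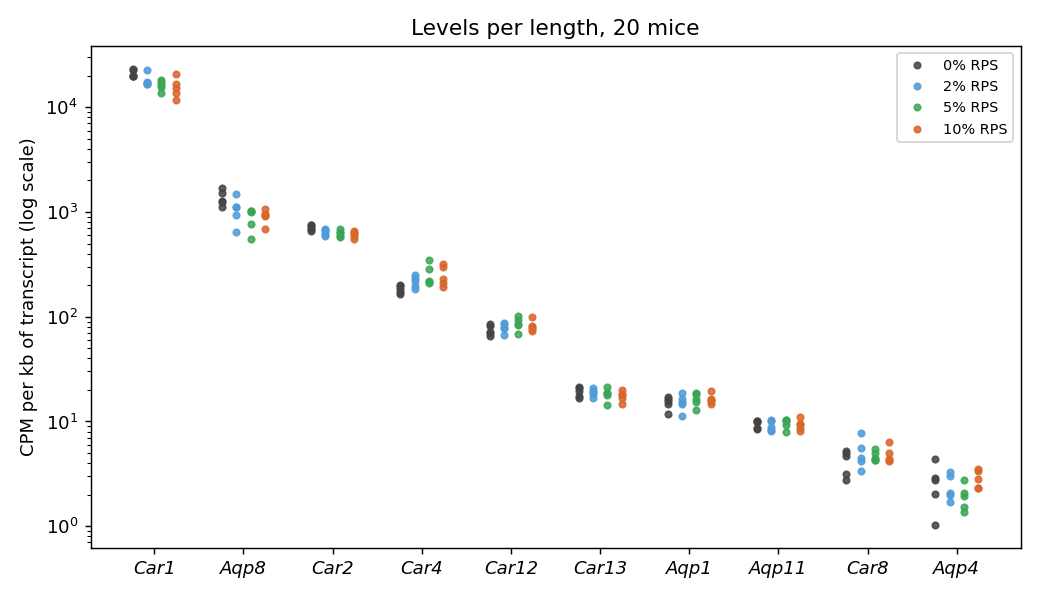
Level of each gene in CPM per kb of canonical transcript (log scale), with 1 point per mouse, colored by diet. Car1 lies above every other gene in all 20 mice, and the levels then step down from Aqp8 to Aqp4.

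Most neighbours in this order did not overlap in any mouse. The exceptions were Aqp8 and Car2, whose ranges over the 20 mice were 554 to 1684 and 554 to 753 CPM per kb, Car13 and Aqp1 (14.4 to 21.5 and 11.3 to 19.4), and Car8 and Aqp4 (2.74 to 7.70 and 1.03 to 4.41). Mice on one diet differed least in Car2, with a within-diet coefficient of variation of 6.71%, and most in Aqp4, with 32.6%, where the median of all tested genes was 16.4%. Summed over the 6 genes, carbonic anhydrase counts were between 2.47 and 2.88% of all counts in mice fed 0% RPS and between 1.68 and 2.62% in mice fed 10% RPS.

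With 10% RPS compared with 0% RPS, 0 of the 10 genes were called by edgeR's quasi-likelihood test, where 1.04% of all tested genes (160) were. That share depended on single mice. Leaving out mouse 3 of the 10% group reduced the count of called genes to 14, and leaving out mouse 2 of the 0% group raised it to 344, the lowest and highest of 10 such fits. DESeq2's Wald test at the same thresholds also called 0, where it called 1.99% of the 18520 genes it tested. DESeq2 gave an adjusted p to only 14946 of those genes, and the others could not be called. It called 3 (Car1, Car2, and Aqp8) when the fold change threshold was dropped, against 4.84% of all. At an unadjusted p under 0.05 there were 4, against 19.5% of all tested genes. Of these, 3 were lower (Car1, Car2, and Aqp8, against 9.75% of all tested genes) and 1 was higher (Car4, against 9.74%). The median log2 fold change was 0.06 over the 10 genes and 0.00 over all tested genes, and the median absolute values were 0.17 and 0.16. Since RNA came from whole tissue, fewer cells of a type and less RNA per cell cannot be told apart in any of these values.

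**Figure D2:**
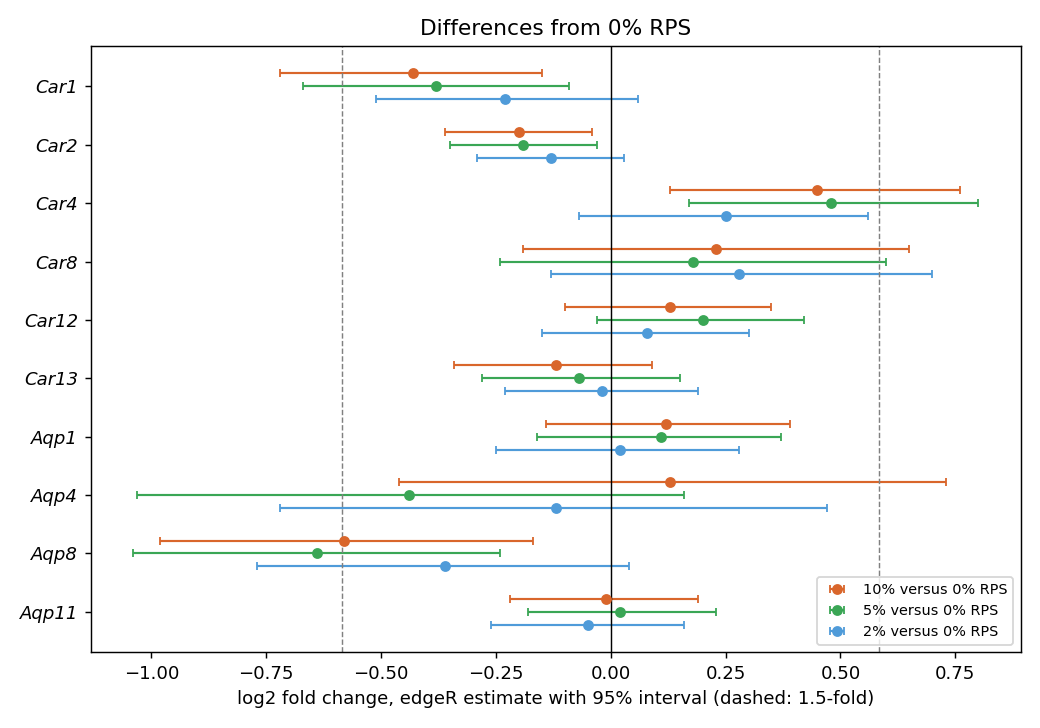
edgeR's log2 fold changes of the 10 genes against 0% RPS with 95% intervals, for 10, 5, and 2% RPS, which share the mice fed 0% RPS. Intervals for Car1, Car2, and Aqp8 lie below 0 and that of Car4 above 0 at 10 and 5% RPS, and every interval includes 0 at 2% RPS.

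Car1 is a cytosolic carbonic anhydrase of the colonic epithelium (ENSMUSG00000027556, chromosome 3 of GRCm39, 14831269 to 14873459). Its CPM in mice 1 to 5 was 23464, 23473, 23842, 27236, and 27715 with 0% RPS, and 18294, 24663, 13968, 19979, and 16231 with 10% RPS. Of the mice fed 10% RPS, 4 lay below every mouse fed 0% RPS and mouse 2 lay among them. With 5% RPS the values were 21546, 20647, 16390, 18705, and 19337 CPM, all below those of the mice fed 0% RPS, and with 2% RPS they were 20931, 20239, 19646, 26956, and 19665 CPM. The mean was 18627 ± 4056 CPM with 10% and 25146 ± 2139 CPM with 0% RPS (SD, n = 5 each). In edgeR the log2 fold change was -0.43 (SE 0.14, 95% interval -0.72 to -0.15, adjusted p = 0.0956 by edgeR). Estimates were -0.38 with 5% RPS (adjusted p = 0.203 by edgeR) and -0.23 with 2% RPS (adjusted p = 0.898 by edgeR). Adding 1 surrogate variable to the model gave an estimate of -0.315 at 10% RPS (adjusted p = 0.197 by edgeR). The pseudogene Gm16399, which was not among the genes counted, overlaps Car1 on the same strand.

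Car2 is also cytosolic, highly active and found in many secreting and absorbing epithelia (ENSMUSG00000027562, chromosome 3, 14951317 to 14967568). Its CPM was 1272, 1333, 1467, 1460, and 1361 in mice 1 to 5 fed 0% RPS and 1153, 1296, 1079, 1237, and 1221 in those fed 10% RPS. Only mouse 2 on 10% RPS reached the range of the mice fed 0% RPS. The log2 fold change was small, -0.20 (SE 0.08, 95% interval -0.36 to -0.04, adjusted p = 0.158 by edgeR), and it was -0.19 with 5% and -0.13 with 2% RPS. With 1 surrogate variable the estimate at 10% RPS was -0.124 (adjusted p = 0.37 by edgeR). The intervals at all 3 doses exclude a fall to 1.5-fold lower.

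Car13 is another cytosolic member and lies in the same stretch of chromosome 3 as Car1 and Car2. Its lowest, median, and highest values were 38.9, 45.0, and 49.4 CPM with 0% RPS and 34.2, 41.7, and 46.6 CPM with 10% RPS. The groups overlapped broadly. The log2 fold change was -0.12 (95% interval -0.34 to 0.09, adjusted p = 0.534 by edgeR).

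Car4 is anchored to the outer face of the apical membrane and acts on carbon dioxide and bicarbonate at the cell surface (ENSMUSG00000000805, chromosome 11, 84848020 to 84856879). In mice 1 to 5 it had 275, 258, 293, 247, and 303 CPM with 0% RPS and 315, 481, 446, 291, and 344 CPM with 10% RPS. Mouse 4 on 10% RPS was the only one within the range of the mice fed 0% RPS. With 5% RPS the values were 331, 325, 317, 427, and 526 CPM, above every mouse fed 0% RPS, and with 2% RPS they were 294, 275, 380, 328, and 355 CPM. The log2 fold change was 0.45 with 10% RPS (SE 0.15, 95% interval 0.13 to 0.76, adjusted p = 0.114 by edgeR), 0.48 with 5% RPS (adjusted p = 0.137 by edgeR), and 0.25 with 2% RPS (adjusted p = 0.898 by edgeR). In CPM per kb, Car1 stood at 103 to 139 times Car4 in mice fed 0% RPS and at 39.6 to 86.8 times in mice fed 10% RPS, ranges that do not overlap. The ratio was chosen after both genes' values had been seen.

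Car12 is a transmembrane enzyme with an extracellular catalytic domain. Its lowest, median, and highest values were 259, 283, and 337 CPM with 0% RPS and 289, 313, and 388 CPM with 10% RPS, which overlapped. The log2 fold change was 0.13 (95% interval -0.10 to 0.35, adjusted p = 0.547 by edgeR), between 0.052 and 0.179 with 1 mouse left out and 0.266 with 1 surrogate variable. Car12 overlaps Aph1b on the opposite strand, and the strand setting used in counting is not stated, so reads of the overlap could belong to either gene. Car8 is related in sequence but lacks carbonic anhydrase activity, and its log2 fold change was 0.23 (95% interval -0.19 to 0.65, adjusted p = 0.566 by edgeR), between 0.107 and 0.318 with 1 mouse left out and 0.467 with 1 surrogate variable. It had between 10.7 and 20.1 CPM with 0% RPS and between 16.4 and 25.0 CPM with 10% RPS.

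**Figure D3:**
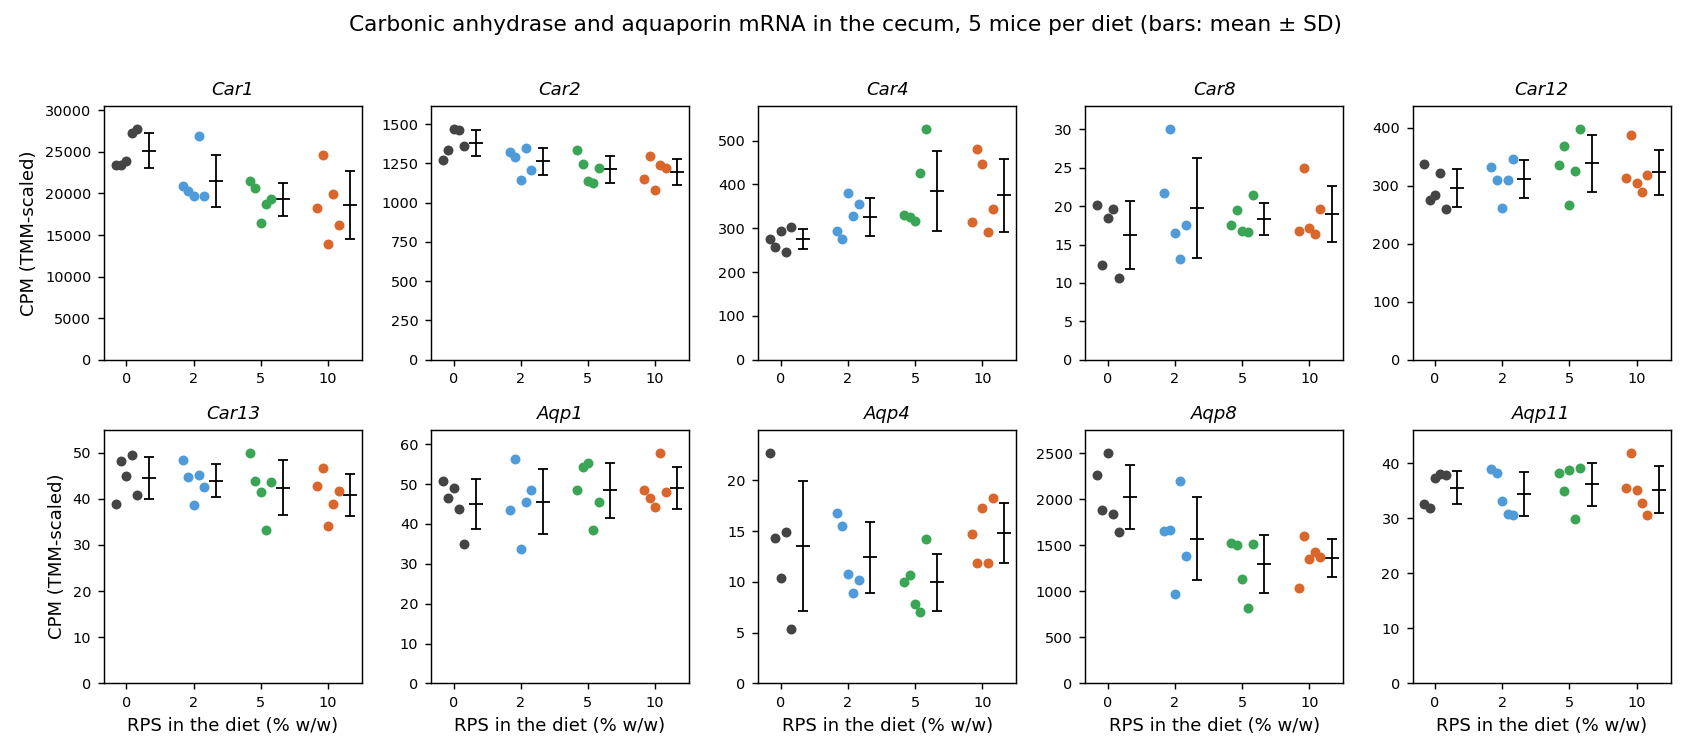
CPM of each of the 10 genes by diet, with 1 point per mouse and the mean ± SD of 5 mice beside them. Aqp8 is lower in every mouse fed 10% than in every mouse fed 0% RPS, while the 2 diets overlap for the other 9 genes.

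Aqp8, a channel of surface colonocytes that passes water and ammonia, was the 1 gene of the 10 whose mice fed 10% RPS did not overlap those fed 0% RPS (ENSMUSG00000030762, chromosome 7, 123061514 to 123067227). Over all tested genes 4.88% did not overlap in that comparison, and 3.2% lay lower in this way. Its CPM in mice 1 to 5 was 2260, 1889, 2504, 1836, and 1643 with 0% RPS and 1032, 1601, 1350, 1431, and 1378 with 10% RPS. Every mouse fed 5% RPS, with 1522, 1502, 1139, 823, and 1511 CPM, was also below every mouse fed 0% RPS. With 2% RPS the values spread from 968 to 2198 CPM, across both of those ranges. The log2 fold change was -0.58 with 10% RPS (SE 0.19, 95% interval -0.98 to -0.17, adjusted p = 0.114 by edgeR), -0.64 with 5% RPS (adjusted p = 0.127 by edgeR), and -0.36 with 2% RPS (adjusted p = 0.876 by edgeR). With 1 surrogate variable in the model the estimate at 10% RPS was -0.318 (adjusted p = 0.303 by edgeR).

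Aqp1, a water channel best known from endothelium and kidney, had between 34.9 and 50.8 CPM with 0% RPS and between 44.2 and 57.8 CPM with 10% RPS. Its log2 fold change was 0.12 (95% interval -0.14 to 0.39, adjusted p = 0.635 by edgeR). Aqp11, an aquaporin of intracellular membranes, differed least, with a log2 fold change of -0.01 (95% interval -0.22 to 0.19, adjusted p = 0.965 by edgeR). For both genes the intervals at 10% RPS exclude a 1.5-fold difference. Aqp4, a water channel of glia and of some epithelia, was the most variable, with 22.7, 14.3, 10.4, 14.9, and 5.34 CPM in mice 1 to 5 fed 0% RPS. Those values spanned all the mice fed 10% RPS, which had between 11.9 and 18.3 CPM. Its log2 fold change was 0.13 with 10% RPS (SE 0.28, adjusted p = 0.840 by edgeR) and -0.44 with 5% RPS (SE 0.29, adjusted p = 0.553 by edgeR), so a change of moderate size in either direction was not detectable. With 1 mouse left out at a time the estimate at 5% RPS was between -0.638 and -0.167.

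With 5% compared with 0% RPS, 0 of the 10 genes were called by edgeR, where 0.195% of all tested genes (30) were. DESeq2's Wald test called 1, Aqp8 (adjusted p = 0.0405 by DESeq2), against 1.3% of the genes it tested. Of the mice fed 5% RPS, leaving out mouse 5 brought edgeR's count over all genes to 0 and leaving out mouse 1 brought it to 114. An unadjusted edgeR p under 0.05 was found for 4 genes, against 13.3% of all tested genes, namely Car1, Car2, and Aqp8 lower (6.54% of all) and Car4 higher (6.74%). In 3 of the 10 the mice fed 5% and 0% RPS did not overlap, against 3.57% of all tested genes. These were Car1 and Aqp8, lower (2.04% of all), and Car4, higher (1.53%). With 2% RPS, 0 were called by edgeR (0% of all tested genes) or by DESeq2 (0.027%), and 0 had an unadjusted edgeR p under 0.05, against 5.77%. These comparisons share the 5 mice fed 0% RPS, which ties their estimates to each other.

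Between neighbouring doses, edgeR called 0 of the 10 for 5% against 2% RPS and 0 for 10% against 5% RPS, as it did over all tested genes (0% in each), with 0 of the 10 at an unadjusted p under 0.05 in either (3.39% and 2.79% of all). The direct 10% against 5% estimates were -0.05 for Car1 (95% interval -0.34 to 0.23), -0.04 for Car4 (-0.35 to 0.27), and 0.06 for Aqp8 (-0.34 to 0.47). These intervals exclude a 1.5-fold difference between the 2 highest doses in all 3 genes. A test of any difference among the 4 diets called 0 of the 10 (0.0912% of all tested genes), with 3 at an unadjusted p under 0.05 (Car1, Car4, and Aqp8), against 11.1%.

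A slope on the RPS percentage, called at an adjusted p of at most 0.05 with no fold change threshold, was called for 0 of the 10 genes by edgeR and for 1.11% of all tested genes (170). The count over all genes was 0 when mouse 1 of the 10% group was left out and 674 when mouse 3 of the 2% group was. DESeq2's Wald test called 1, Car1, against 3.81% of the genes it tested. With 1 surrogate variable in the edgeR model 1 of the 10 was called, Aqp8 (adjusted p = 0.0359 by edgeR), against 7.96% of all tested genes. That variable was estimated for the trend and is not the one used in the comparisons of diets. The slope, in log2 units per percentage point of RPS, was -0.053 for Aqp8 (SE 0.019, adjusted p = 0.141 by edgeR), -0.040 for Car1 (SE 0.013, adjusted p = 0.106 by edgeR), 0.042 for Car4 (SE 0.015, adjusted p = 0.143 by edgeR), and -0.018 for Car2 (SE 0.007, adjusted p = 0.185 by edgeR). These were the 4 genes with an unadjusted p under 0.05, against 18.8% of all tested genes (9.47% with a lower and 9.37% with a higher slope).

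The cytosolic enzymes and Aqp8 varied together from mouse to mouse. Over the 20 mice the Pearson correlation of log2 CPM was 0.84 for Car1 and Car2, 0.81 for Car2 and Aqp8, 0.74 for Car2 and Car13, and 0.63 for Car1 and Aqp8. With the mean of each diet removed these were 0.71, 0.67, 0.80, and 0.37. Car4 ran the other way from Car2, with -0.55, but within diets this was -0.23. These points share libraries, their scaling, and their diets, so the values describe these mice only. Among the 10 genes, Car8 was most closely related to Car12 (0.60, within diets 0.58) and to Aqp4 (0.55, within diets 0.63).

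**Figure D4:**
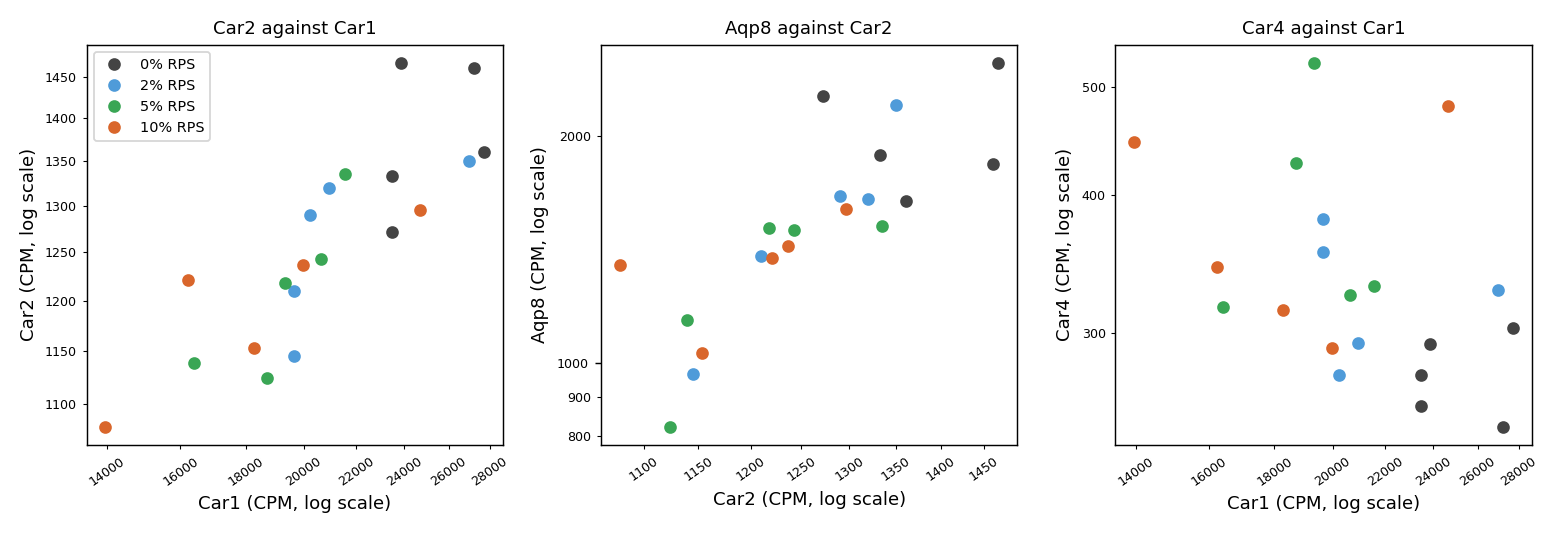
CPM of pairs of genes in the 20 mice (log scales), with 1 point per mouse colored by diet. Car2 climbs with Car1 and Aqp8 climbs with Car2 (correlations 0.84 and 0.81), while Car4 shows a loose inverse relation to Car1 (-0.41) that is 0.03 within diets.

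Outside the 10, the genes most like Car1 over the 20 mice were Mcu (correlation 0.96), Pmm2 (0.93), and Psmb7 (0.91). Those most like Aqp8 were Creb3 (0.93), Dnajb6 (0.93), and Rnf121 (0.92), and those most like Car2 were Anxa4 (0.93), Sucla2 (0.93), and Abcd3 (0.92). For Car4 they were Muc13 (0.90), Kcnf1 (0.86), and Acss1 (0.86), of which Kcnf1 was called with 10% RPS (log2 fold change 0.89, adjusted p = 0.0251 by edgeR).

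Cell type markers moved with some of these genes. Smooth muscle markers (7 of 7 tested, including Myh11, Acta2, and Actg2, none at 0) summed to between 2476 and 5764 CPM with 0% RPS and between 4048 and 6768 CPM with 10% RPS. All 7 had higher estimates with 10% RPS, 4 at an unadjusted p under 0.05, and 1, Actg2, was called (edgeR). With 5% RPS all 7 were higher at an unadjusted edgeR p under 0.05, against 6.74% of all tested genes. The median log2 fold change there was 0.73, and Actg2 was called (adjusted p = 0.0425 by edgeR). Their summed level had a correlation over the 20 mice of 0.74 with Car4, -0.70 with Aqp8, and -0.70 with Car2 (0.56, -0.49, and -0.51 within diets). Epithelial markers (8 of 8 tested, none at 0) summed to between 9990 and 13488 CPM with 0% and between 8971 and 12082 CPM with 10% RPS, and 7 of the 8 had lower estimates with 10% RPS. Their summed level had a correlation of 0.86 with Car1 (0.84 within diets). Goblet cell markers (7 of 7 tested) summed to between 8389 and 11426 CPM with 0% and between 6740 and 8132 CPM with 10% RPS, with lower estimates for all 7, of which 5 had an unadjusted p below 0.05 (median log2 fold change -0.53), and 1, Zg16, was called lower (edgeR). Surface colonocyte markers (8 of 8 tested, among them Slc26a3) summed to between 23573 and 24793 CPM with 0% and between 21890 and 29137 CPM with 10% RPS. Of these, 5 had higher and 3 lower estimates, with a median log2 fold change of 0.05. The summed level of all 8 had a correlation of 0.65 with Car12 and 0.52 with Car4 (0.68 and 0.62 within diets). It was 0.45 with Car1, 0.28 with Aqp8, and 0.21 with Car2 (0.67, 0.45, and 0.34 within diets). B cell markers (7 of 7 tested) summed to between 5.77 and 218 CPM with 0% and between 16.4 and 295 CPM with 10% RPS, with 7 higher estimates and 0 called (median log2 fold change 2.03, lowest adjusted p = 0.263 by edgeR). Endothelial markers (8 of 8 tested) had 6 lower estimates, of which 4 had an unadjusted p under 0.05, with 0 called (lowest adjusted p = 0.0706 by edgeR). Ileum enterocyte markers (5 of 5 tested) summed to between 1621 and 2171 CPM with 0% and between 1169 and 2076 CPM with 10% RPS, mostly from Fabp2, and the ileal markers Fabp6 and Apoa1 had at most 49 and 45 counts in any mouse. Of the 5, 4 had lower estimates and 1, Alpi, was called lower (edgeR). The fifth, Slc10a2, had a higher estimate and was called by DESeq2's Wald test (log2 fold change 0.90, adjusted p = 0.00791) but not by edgeR. The summed level of the 5 had correlations of 0.71 with Car1, 0.75 with Car2, and 0.67 with Aqp8 (0.71, 0.76, and 0.66 within diets). Red blood cell markers, which matter here because red cells hold Car1 and Car2, summed to between 7.17 and 17.6 CPM with 0% and between 4.93 and 10.4 CPM with 10% RPS. All 4 that were tested, of 7, had lower estimates (median log2 fold change -0.76, 0 called, lowest adjusted p = 0.155 by edgeR), and the summed level of all 7 had correlations of 0.23 with Car1 and 0.36 with Car2 (0.05 and 0.26 within diets). Enteric neuron markers (7 of 7 tested) all had lower estimates, with 0 called (lowest adjusted p = 0.269 by edgeR). Their sums were between 56.3 and 124 CPM with 0% and between 47.7 and 80.8 CPM with 10% RPS, but the median sum was higher with 10% RPS (67 against 59.9 CPM). Stem and cycling crypt cell markers (7 of 7 tested) all had higher estimates (median log2 fold change 0.23) and 5 of 6 adipocyte markers had lower ones (median -0.84), with 0 called in either list (lowest adjusted p = 0.256 and 0.0793 by edgeR). The part of these cell types in the differences of Car1, Car2, Car4, and Aqp8 was not tested.

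Other members of both families were mostly low in the cecum. Of 10 other carbonic anhydrases, 6 passed the filter on low counts and 0 were called by edgeR or by DESeq2's Wald test in any comparison with 0% RPS or in the trend, with 0 at an unadjusted edgeR p under 0.05. The most abundant in CPM was Car9, a transmembrane enzyme, with between 103 and 123 CPM with 0% RPS and between 108 and 140 CPM with 10% RPS. Of 8 other aquaporins, 6 were matched and 3 were tested, with 0 called by edgeR or DESeq2 and 0 at an unadjusted edgeR p under 0.05. Aqp3, named after its values were seen, was the 1 whose mice fed 10% and 0% RPS did not overlap (0.190 to 0.453 against 0.456 to 0.750 CPM), where 3.2% of all tested genes lay lower in this way. It had between 2 and 21 counts per mouse over the 20 mice, and its log2 fold change was -0.99 (SE 0.50, adjusted p = 0.281 by edgeR).

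The proteins that work beside these enzymes and channels were followed in a list of acid, base, salt, and water transport genes. Of 35 listed, 34 were matched and 32 tested, and 2 rose with 10% RPS while 0 fell (edgeR), where 1.04% of all tested genes were called. At an unadjusted p under 0.05 there were 4 higher and 6 lower, where 9.74% and 9.75% of all tested genes were. DESeq2's Wald test called 2 higher and 2 lower (Slc9a3 and Scnn1g), against 1.16% and 0.832% of the genes it tested. Slc26a3, the apical exchanger that takes up chloride for bicarbonate, had 1199, 1287, 1337, 1271, and 916 CPM in mice 1 to 5 fed 0% RPS and 2048, 2459, 1615, 1528, and 1516 CPM in those fed 10% RPS. The groups did not overlap, and Slc26a3 rose by a log2 fold change of 0.61 (SE 0.16, adjusted p = 0.0487 by edgeR). Slc5a8, the sodium-coupled carrier of short-chain fatty acids such as butyrate, had 113, 71.2, 62.7, 82.1, and 44.6 CPM with 0% RPS and 170, 194, 211, 100, and 138 CPM with 10% RPS. Mouse 4 on 10% RPS lay below mouse 1 on 0% RPS, and Slc5a8 rose by a log2 fold change of 1.12 (SE 0.24, adjusted p = 0.0275 by edgeR) and with the linear trend (slope 0.107, adjusted p = 0.0405 by edgeR). edgeR called neither with 5% or 2% RPS, and DESeq2 called both with 5% RPS.

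By edgeR both calls were close to the threshold, while DESeq2's Wald test gave an adjusted p of 0.00679 for Slc26a3 and 0.000401 for Slc5a8. When only the 2 diets compared were fitted, the adjusted p by edgeR was 0.0674 for Slc26a3 and 0.0649 for Slc5a8. With 1 mouse left out at a time, Slc26a3 stayed called in 2 of 10 fits (adjusted p by edgeR 0.0284 to 0.136) and Slc5a8 in 4 of 10 (0.00801 to 0.0921). The trend call of Slc5a8 stayed in 8 of 20 such fits (0.00907 to 0.135). Slc9a3, the apical sodium and proton exchanger, named after its values were seen, had 375, 468, 373, 290, and 446 CPM with 0% RPS and 155, 98.5, 134, 318, and 240 CPM with 10% RPS. Mouse 4 on 10% RPS lay within the range of the mice fed 0% RPS and the other 4 lay below it, and the log2 fold change of -1.05 did not pass the threshold by edgeR (SE 0.29, adjusted p = 0.0671) but did by DESeq2 (adjusted p = 0.0066). With 1 mouse left out edgeR called it in 1 of 10 fits (adjusted p 0.0178 to 0.184). Its slope of -0.104 was not called by edgeR (adjusted p = 0.0594), but was with the dose rank (0.0272 by edgeR) or 1 surrogate variable (0.0359 by edgeR). DESeq2 called that slope (adjusted p = 0.0262), among 2 higher and 3 lower slopes of the list, against 3.81% of the genes it tested.

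**Figure D5:**
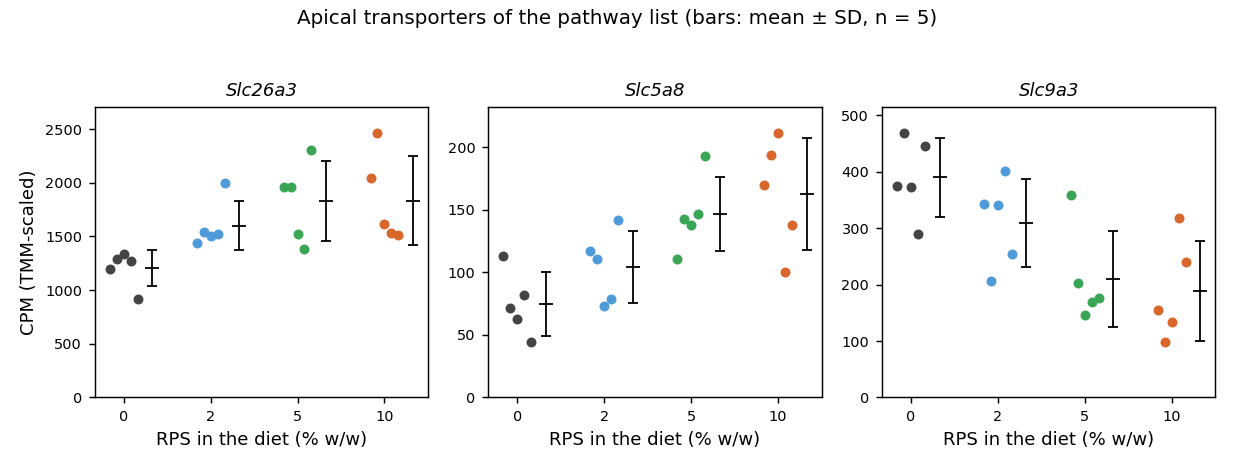
CPM of Slc26a3, Slc5a8, and Slc9a3 by diet, with 1 point per mouse and the mean ± SD of 5 mice. Slc26a3 is higher in every mouse fed 10% than in every mouse fed 0% RPS, and Slc9a3 averages 391 CPM with 0% and 189 CPM with 10% RPS.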

How the data were processed

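Cecum RNA from 20 mice was sequenced from stranded poly(A) libraries. Raw counts per gene and mouse were deposited by the authors, who had trimmed reads by quality, dropped those with several ambiguous bases, and used the CLC Genomics Workbench to map them to GRCm39. The annotation, the handling of multimapped reads, and the strand setting are not given in the sources used here.

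Mice were grouped by the treatment label and numbered in accession order. Nothing in the labels names cages or litters. The tests treated each mouse as independent, and whether mice shared a cage or litter could not be checked. Gene names and lengths came from GENCODE, in which 19827 of 19887 identifiers were found. Genes were filtered with filterByExpr (minimum count 10, minimum total 15), which kept 99.98% of counts, scaled by TMM, and fitted for all 4 diets with the quasi-likelihood model of edgeR 4.0.16 in R 4.3.3. All p-values are two-sided. In edgeR they were adjusted over the genes each fit tested, which were 15348 with all mice. DESeq2 tested 18520 genes (18510 in the trend) but gave an adjusted p to between 14586 and 18520 of them. Shares called by DESeq2 are of all the genes it tested, and so are lower than shares of the genes with an adjusted p. Correlations used log2 CPM with a prior count of 2.

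The members, lists, and tests were chosen with earlier results of these data known. Named genes were the 10 members, other family and pathway genes past the threshold, and the 3 genes most correlated with a member. Car3, Car9, Aqp3, Aqp7, Scnn1g, and Slc9a3, and the marker genes named for their calls, fell outside this rule and were named after their values were seen. Slc9a3r1, Aqp2, and Aqp6 were not matched by name. Alternatives were DESeq2's size factors, DESeq2 1.42.0's Wald test, no filter on low counts, no fold change threshold, only the 2 diets compared, 1 surrogate variable (sva 3.50.0), the dose rank, and leaving out 1 mouse at a time. The surrogate variable was estimated separately for the comparisons of diets and for the trend. DESeq2 without a fold change threshold was added after the data were seen.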

Additional observations from a re-analysis of the deposited data

Results flagged for a closer look

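Car1 in mouse 4 fed 2% RPS stood apart from the other 4 mice of its diet. It had 26956 CPM, where the others had between 19646 and 20931 CPM, and its gap to the nearest of them was 0.824 of the range of the group, above Dixon's critical value of 0.71 for 5 samples. Of the 40 sets of 5 mice tested (10 genes on 4 diets), this was the only one singled out, and about 2 are expected by chance. Without this mouse or any other in turn, the log2 fold change of Car1 with 2% RPS was between -0.32 and -0.18, and it was called in none of the 10 fits (lowest adjusted p = 0.570 by edgeR).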

How the results depend on the processing

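No paired analysis was possible because the labels give each mouse a number of its own, and the numbers 1 to 5 used here follow accession order within a diet. With 10% RPS the number of the 10 genes called was 0 under all alternatives but 1, and 3 with DESeq2's Wald test and no fold change threshold, which was added after seeing the data (Aqp8 adjusted p = 0.0451, Car1 0.0265, and Car2 0.0443, all by DESeq2). With 5% RPS it was 1 (Aqp8) with DESeq2's Wald test with or without the fold change threshold. For the linear trend it was 1 with 1 surrogate variable (Aqp8, adjusted p = 0.0359 by edgeR, in a fit that called 1222 of all tested genes against 170 without it), 1 with DESeq2's Wald test (Car1, adjusted p = 0.0377 by DESeq2), and 0 to 1 when each mouse was left out (Car1 without mouse 2 on 10% RPS, adjusted p = 0.0474 by edgeR). With 2% RPS it was 0 under all alternatives run. The causes of these differences were not tested.

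Estimates close to 0 changed sign. With 1 surrogate variable the log2 fold change of Aqp11 with 10% RPS was 0.10. When each mouse was left out, the ranges that crossed 0 were -0.056 to 0.405 for Aqp4 and -0.083 to 0.041 for Aqp11 with 10% RPS, -0.131 to 0.005 for Car13 and -0.012 to 0.083 for Aqp11 with 5% RPS, -0.063 to 0.025 for Car13, -0.063 to 0.108 for Aqp1, and -0.319 to 0.149 for Aqp4 with 2% RPS, and -0.0055 to 0.0064 for the slope of Aqp11. Car1, Car2, Car4, and Aqp8 kept their signs in all fits. With 1 surrogate variable, however, the log2 fold change with 10% RPS was nearer 0 for Aqp8 (-0.318, adjusted p = 0.303 by edgeR), Car1 (-0.315, adjusted p = 0.197 by edgeR), Car2 (-0.124, adjusted p = 0.37 by edgeR), and Car13 (-0.029). It was farther from 0 for Car8 (0.467), Car12 (0.266), and Aqp1 (0.224), and none of these genes was called. With each mouse left out, Car13 ranged from -0.177 to -0.061 and Aqp1 from 0.057 to 0.17 with 10% RPS. With 5 mice per diet, the 95% interval of Aqp4 with 10% RPS still spanned -0.46 to 0.73.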

Other observations

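Car13, Car1, Car3, and Car2 lie within 261 kb of chromosome 3, and these 4 were the only genes counted there. Car3, an enzyme known from muscle and fat and named here after its values were seen, ranged from 1.64 to 125 CPM over the 20 mice. Its correlation over the 20 mice was 0.35 with Car1 and 0.20 with Car2, and 0.90 with the summed adipocyte markers (0.94 within diets). The glycerol channel Aqp7, a low gene also named after its values were seen, had a correlation of 0.84 with the same markers (0.90 within diets). These points share libraries and scaling. The adipocyte markers (6 of 6 tested) summed to between 65.9 and 153 CPM with 0% RPS and between 24.2 and 135 CPM with 10% RPS. Much of this sum was Cidec, with between 21.4 and 92.7 CPM and no fewer than 614 counts. Adipoq, Plin1, Lep, and Retn each had a lowest value of 0 counts. Car9 had a correlation of 0.57 with Car1 and 0.54 with Car2 over the 20 mice, and 0.83 and 0.79 within diets.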
